A study of Oryctolagus cuniculus with 4 samples.

Results

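The comparison was between healthy rabbit supraspinatus muscle that had been stored for 6 years and healthy supraspinatus muscle that was used fresh, with every spot of both sections taken as members. It held 4390 of the 6970 spots of the series and 2 of its 4 sections, namely 2440 spots of the stored section (14R) and 1950 spots of the fresh section (211R). Visium is a 3′ assay in which messenger RNA from a thin tissue section binds to printed spots below it and receives a barcode for the spot and a unique molecular identifier (UMI) for the molecule. A spot is a small region that can hold several muscle fibers together with cells between them. Both muscles were snap frozen in cooled isopentane and kept frozen, and both came from the posterior distal muscle belly of skeletally mature female New Zealand White rabbits, given as 6 months old in the study's methods. Neither carried a tendon cut of its own, but by the sample names 14R was the intact side of the rabbit whose other side had its tendon cut and was sampled 16 weeks later. The remaining sections, from tenotomized muscle stored equally long, entered no comparison, and their levels are given at a few genes side by side. There was 1 section of each kind, so storage, animal and section cannot be told apart, no test was possible and no p-value is given.

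Skeletal muscle fibers come in slow and fast types that differ in their myosin, calcium pumps and metabolism. Slow fibers carry the type 1 myosin heavy chain encoded by MYH7 and rely on oxidative metabolism, whereas fast fibers of the 2x type carry that encoded by MYH1 and lean on glycolysis. A muscle changes its mix of types from region to region and from animal to animal, so that sections of the same muscle can differ at many genes through fiber types alone.

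The stored section had 12536450 UMIs and the fresh section 7017798, and 10437 of the 21139 genes in the table had at least 1 UMI in either. Each gene's UMIs were divided by the total of the section, the log2 ratio of stored over fresh was taken, and a gene counted as different where the ratio was at least 2-fold and the sections together had at least 100 UMIs. Intervals in brackets are 95% intervals that cover counting error only. The tissue label held against markers, since all 13 slow fiber and 9 fast fiber genes that have a feature were detected in both sections, while the 5 lymphocyte and plasma cell genes with a feature summed to 0.0112 per 10000 UMIs in the stored and 0.0228 in the fresh section. The 2 blood genes with a feature stood at 0.0598 and 0.0570 per 10000 UMIs.

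The fiber mix differed before anything else. MYH7 made up 55.5% of all MYH1 and MYH7 UMIs in the stored section and 14.4% in the fresh section. Among spots with at least 20 UMIs of these genes, the median share of MYH7 was 48.2% in 2281 stored spots, with quartiles of 25% and 85.9%. The median was 9.09% in 1679 fresh spots, with quartiles of 4.29% and 20.8%. Most fresh spots were thus nearly pure MYH1 spots, whereas stored spots covered the whole range.

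**Figure D1:**
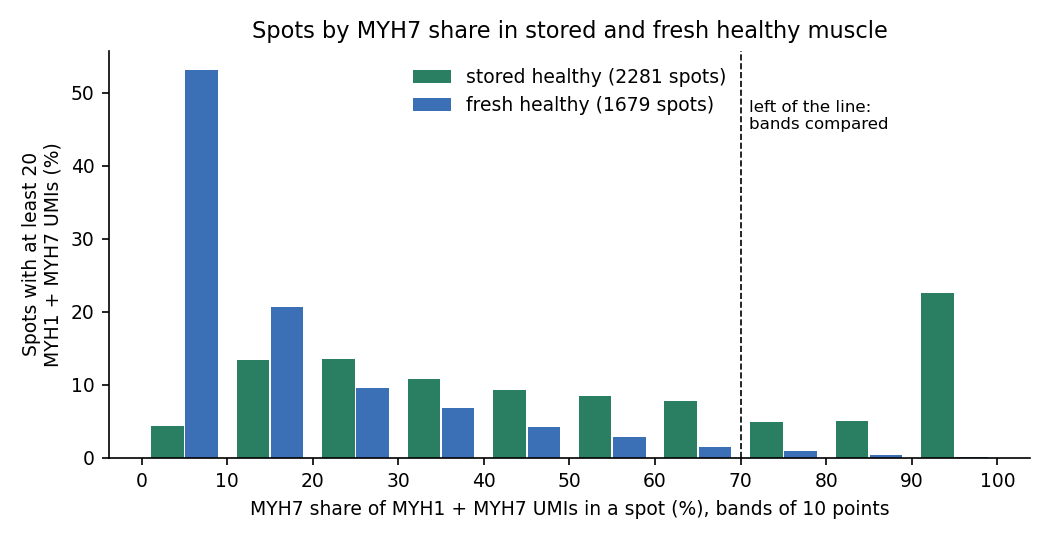
Percent of spots with at least 20 MYH1 and MYH7 UMIs (y axis) in each 10-point band of the MYH7 share (x axis, %), stored section in green and fresh section in blue. The fresh section had 891 spots under 10% and 1 spot above 90%, against 100 and 515 spots of the stored section, and the dashed line at 70% bounds the 7 bands that had enough spots in both sections.

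To hold fiber type level, spots were compared only with spots of the other section in the same 10-point band of the MYH7 share, and the ratios of the bands were combined into 1 ratio for each gene (Mantel-Haenszel). Bands were used where both sections had at least 20 spots, which held for the 7 bands from 0% to 70%. These bands kept 1540 stored spots with 63.3% of the UMIs of that section and 1656 fresh spots with 96.1%. A further 741 stored and 23 fresh spots lay above 70%, and 159 stored and 271 fresh spots had too few myosin UMIs to be placed. Across the used bands the median depth per spot was between 4183 and 5364 UMIs in the stored and between 3790 and 4883 in the fresh section, and mitochondrially encoded genes took between 46.7% and 52.0% of the stored and between 48.4% and 51.6% of the fresh UMIs.

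Over all spots, 247 of 3390 genes were at least 2-fold higher in the stored section (7.29%) and 250 were at least 2-fold lower (7.37%). Within bands, 99 of 2898 genes were higher (3.42%) and 214 were lower (7.38%). Of the genes called higher over all spots, 174 could be counted within bands, 89 of these were still 2-fold higher and 85 were not. Of those called lower, 226 could be counted and 150 were still 2-fold lower. The drop in the number of higher genes came with leaving out spots, which also left fewer genes to count, and not with the banding. The same banded spots compared without bands gave 95 higher and 227 lower of 2898 genes. The bulk of the muscle transcriptome was close between the sections, since 2047 genes (70.6%) differed by less than 1.5-fold within bands. The median gene stood at −0.16 within bands and at −0.07 over all spots on the log2 scale, so a gene near −0.16 was level with most others. When the sections were scaled by the median gene in place of the total, 130 genes were higher and 133 lower within bands.

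Slow fiber genes that were 2-fold higher over all spots came down in steps. Their ratios fell first when spots outside the used bands were left out and again when the remaining spots were compared within bands. MYH1 and MYH7 themselves defined the bands and are no result there. MYL2, the slow ventricular-type regulatory light chain, was at 252 per 10000 UMIs in the stored and 57.7 in the fresh section, a log2 ratio of 2.12 that came down to 1.49 in the spots of the used bands and to 0.67 when these were compared within bands (0.65 to 0.69). MYL3, the slow essential light chain, went from 1.47 over 1.06 to 0.21 by the same steps, and TNNC1, the troponin C of slow fibers, from 1.198 over 0.67 to −0.19. CSRP3, a Z-disc protein of slow fibers, went from 1.77 over 0.97 to 0.35 and MYOZ2, the slow calsarcin, from 1.24 over 0.74 to −0.19. MYH7B passed 0 further, from 1.62 over 0.52 to −0.62. Two-step moves away from 0 were seen for SMPX, from −0.01 over −0.18 to −0.45, and ANKRD2, from 0.07 over −0.49 to −1.23. Of 13 slow fiber genes counted over all spots 9 were 2-fold higher in the stored section, against 7.29% of all genes, and none was lower, with a median of 1.47. Within bands 1 of 12 was higher, against 3.42% of all genes, and 1 was lower, with a median of −0.19.

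Fast fiber genes moved the opposite way. ACTN3, the fast fiber alpha-actinin, was at 6.06 per 10000 UMIs in the stored and 16.9 in the fresh section, and its log2 ratio went from −1.48 to −0.95 in the spots of the used bands and to −0.35 within bands. ATP2A1, the fast calcium pump, went from −0.72 over −0.32 to 0.00 (−0.02 to 0.03), TPM1, a tropomyosin, from −0.63 over −0.31 to −0.03, and MYL1, the fast light chain, from −0.50 over −0.11 to 0.20. Over all spots 2 of 9 fast fiber genes, MYH1 and ACTN3, were 2-fold lower, against 7.37% of all genes, and none was higher, with a median of −0.63. Within bands none of 8 was lower and 1, MYH4, was higher, against 3.42% of all genes, with a median of 0.10.

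**Figure D2:**
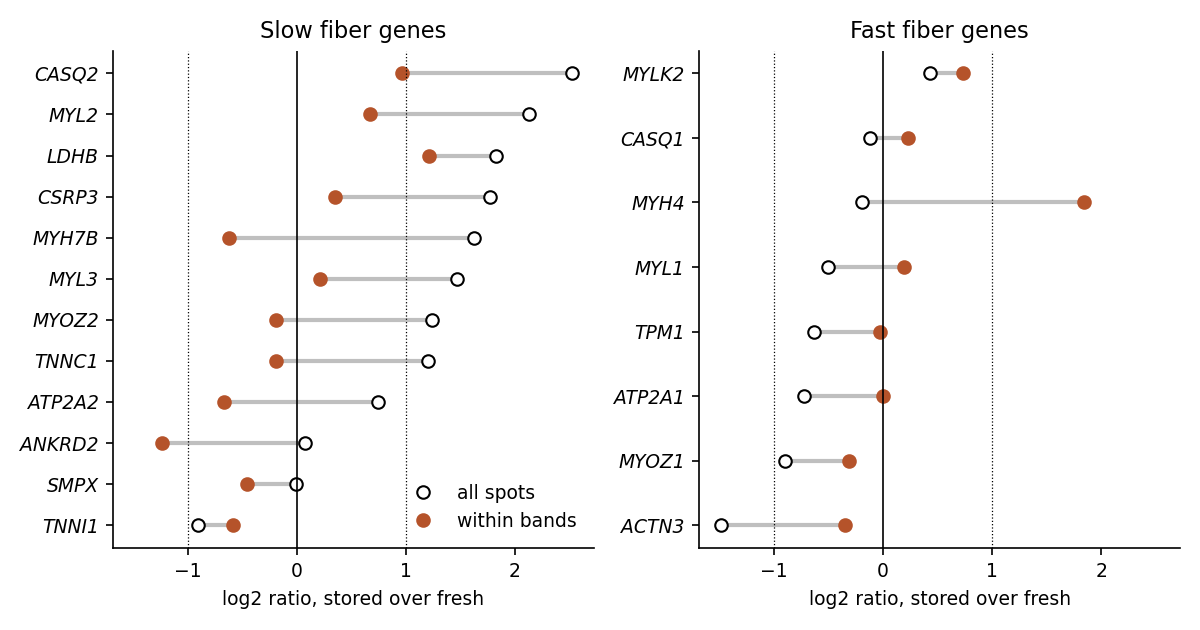
log2 ratio of stored over fresh (x axis) for slow and fast fiber genes, over all spots (open circles) and within bands of the MYH7 share (filled circles), with dotted lines at 2-fold. MYL2 moved from 2.12 to 0.67, TNNC1 from 1.198 to −0.19 and ACTN3 from −1.48 to −0.35, while LDHB stayed beyond 2-fold and ANKRD2 and MYH4 passed it.

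The bands did not make the sections equal in every slow gene. In the lowest band the median MYH7 share was 7.75% in stored and 4.46% in fresh spots, and MYL2 was at 88.0 and 26.6 per 10000 UMIs there. ATP2A2, the slow calcium pump, made up 4.67% of ATP2A1 and ATP2A2 UMIs in the lowest stored band (4.001 to 5.41) and 3.92% in the fresh one (3.68 to 4.16), but 27.6% (26.3 to 28.9) and 38.0% (34.5 to 41.6) in the band from 60% to 70%. At equal MYH7 share, fresh spots thus had more of the slow pump in all bands above the lowest, and ATP2A2 went from 0.74 over all spots to −0.67 within bands. When the share of ATP2A2 defined the bands, MYL2 stood at 1.26, CASQ2 at 1.49, CSRP3 at 1.004 and TNNC1 at 0.38, so the ratio left to slow genes depended on which gene set the bands. TNNI1, named for slow troponin I, went against its label, since its level was lower in the band from 60% to 70% than in the lowest band in both sections, 37.3 against 51.0 per 10000 UMIs in stored and 65.6 against 74.4 in fresh spots.

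LDHB, the heart-type lactate dehydrogenase subunit that favors use of lactate, was the slow fiber gene that stayed 2-fold higher. It was at 11.2 per 10000 UMIs in the stored and 3.18 in the fresh section, with a log2 ratio of 1.82 over all spots and 1.21 within bands (1.13 to 1.29). Stored bands ran from 7.62 to 12.5 and fresh bands from 2.13 to 6.83 per 10000 UMIs, and the ranges did not overlap. CASQ2, the slow calsequestrin that binds calcium in the reticulum, fell just short at 0.96 (0.68 to 1.25) after 2.52 over all spots. MYH4, the type 2b myosin, rested on few UMIs and went from −0.19 over all spots to 1.84 within bands, with stored bands from 0.0526 to 1.97 and fresh bands from 0.0453 to 0.392 per 10000 UMIs. This last value depended on the weighting, since it was 0.92 with equal weights for the bands and 0.62 in bands of the ATP2A2 share.

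Several genes of the small heat shock proteins and their partners were lower in the stored section in each of the 7 bands compared. These chaperones bind unfolded proteins and, in muscle, protect the Z-disc and its filamin under load. HSPB1, which encodes HSP27, was at 14.8 per 10000 UMIs in the stored and 42.4 in the fresh section, and its log2 ratio within bands was −1.58 (−1.62 to −1.54). HSPB8, which works with the co-chaperone BAG3 in clearing damaged filamin, was at 0.979 and 5.87 per 10000 UMIs, with a ratio of −2.48 (−2.62 to −2.34). BAG3 itself was at 3.93 and 5.76 per 10000 UMIs, with −0.55 over all spots and −1.05 within bands (−1.14 to −0.96). All 7 stored bands lay below all 7 fresh bands for each of these 3 genes. In the stored spots above 70%, which had no fresh counterpart, BAG3 was at 5.62 per 10000 UMIs, within the range of the fresh bands (5.33 to 6.36).

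CRYAB, the alpha B-crystallin chaperone, is named here after its values were seen. It was at 57.6 per 10000 UMIs in the stored and 74.7 in the fresh section, a log2 ratio of −0.38 that widened to −1.03 within bands (−1.05 to −1.002). Its level climbed with the MYH7 share in the stored section, from 30.5 in the lowest to 53.5 per 10000 UMIs in the highest used band, and the fresh bands held between 73.6 and 81.2. HSPA4, a co-chaperone of the HSP70 family, had −1.10 within bands, although stored was above fresh in 2 of 7 bands. HSPB3, a small heat shock protein of muscle that is likewise named after its values were seen, was level at 0.10 within bands (−0.18 to 0.39), so the group did not move as a block. In all, 5 of 11 heat shock genes counted within bands were 2-fold lower and none was higher, against 7.38% of all genes lower, and the median of the list was −0.97. Over all spots 2 of 12 were lower, against 7.37% of all genes, and none was higher, with a median of −0.62. With scaling by the median gene, HSPA4 (−0.94), BAG3 (−0.89) and CRYAB (−0.87) fell short of 2-fold, which leaves HSPB1 and HSPB8.

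The genes that muscle uses under mechanical load gave a similar picture with more spread. FLNC, the muscle filamin that crosslinks actin at the Z-disc, was at 0.636 per 10000 UMIs in the stored and 3.56 in the fresh section, and its ratio within bands was −2.54 (−2.71 to −2.36). ANKRD1, a titin-binding ankyrin repeat protein of stretched and injured muscle, was at 5.92 and 22.3 per 10000 UMIs, with −1.92 over all spots and −1.50 within bands. Its slow fiber relative ANKRD2 was level over all spots, at 4.27 and 4.06 per 10000 UMIs, but lower within bands at −1.23 (−1.32 to −1.14), and this came to −0.66 in bands of the ATP2A2 share. ACTC1, the cardiac actin that is also made by developing and regenerating fibers, was 2-fold higher with 1.66 within bands (1.43 to 1.89). Of 11 genes counted within bands, 5 were 2-fold lower, against 7.38% of all genes, and 1 was higher, against 3.42%, with a median of −0.98. Over all spots the list was more mixed, with 3 lower and 2 higher of 12, against 7.37% and 7.29% of all genes, and a median of −0.70. The other lower genes were CRYAB and XIRP1, an actin-binding repeat protein of the muscle-tendon junction and intercalated disc, which had 39 UMIs in the stored and 155 in the fresh section and −2.80. XIRP1 reached the minimum count only through its fresh UMIs, so the share of lower genes in this list is partly set by that minimum. The heat shock and mechanical stress lists share CRYAB, so the 2 counts are not separate.

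These genes also differed in how they followed fiber type. In the fresh section HSPB1 was highest in spots with little MYH7, at 47.4 per 10000 UMIs in the lowest band and 24.2 in the band from 60% to 70%, whereas in the stored section it was at 11.9 and 14.8. HSPB8 was at 6.79 and 3.16 in these fresh bands and at 0.896 and 1.15 in the stored ones. ANKRD1 was at 26.7 and 9.33 per 10000 UMIs in the fresh and at 7.16 and 6.63 in the stored section. The gap for these 3 genes was thus widest in the MYH1-rich spots that filled most of the fresh section.

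**Figure D3:**
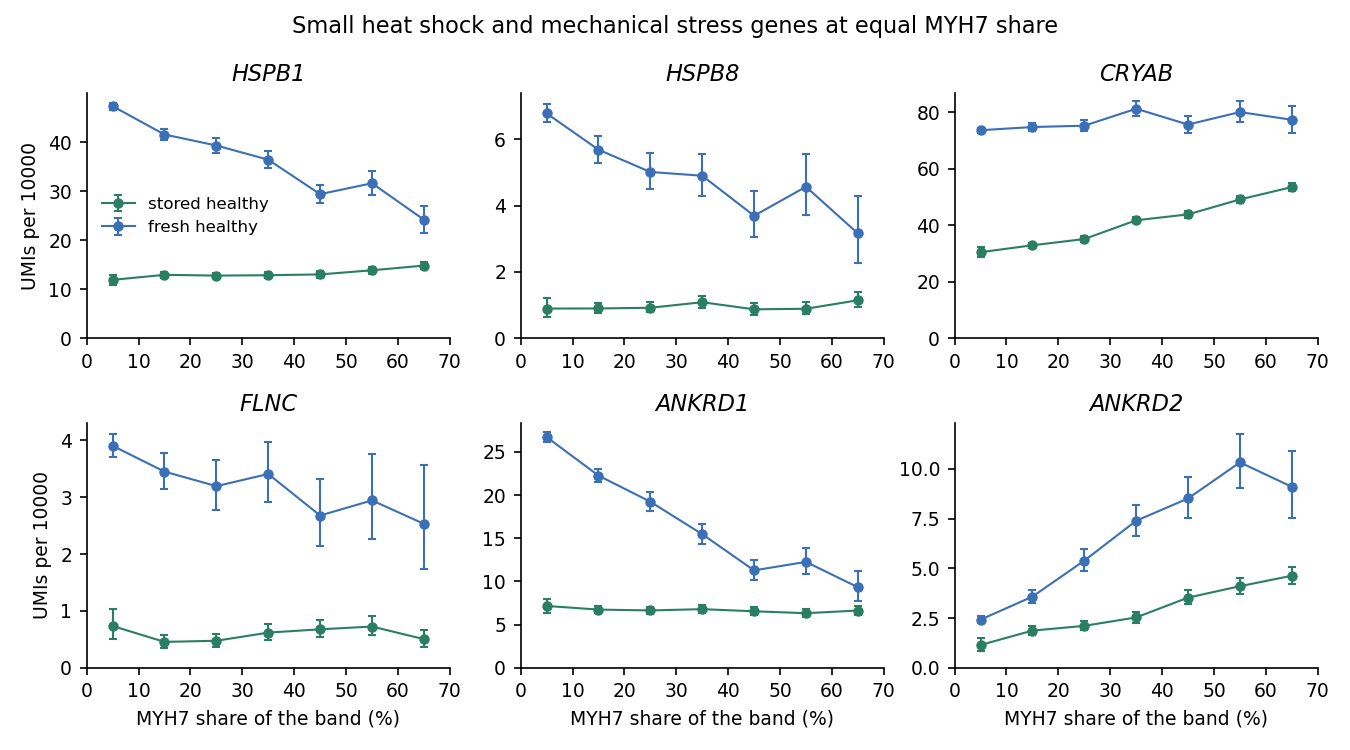
Level in UMIs per 10000 (y axis) against the MYH7 share of the band (x axis, %) for 6 genes, with exact Poisson 95% intervals for counting error. Fresh points (blue) lie above stored points (green) in every band; HSPB1, HSPB8 and ANKRD1 decline with the MYH7 share in the fresh section and are nearly flat in the stored section.

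For these genes the difference was spread over the sections and was not held by few spots. At 1000 UMIs per spot, HSPB8 was detected in 8.95% of stored and 39.4% of fresh spots, and FLNC in 5.75% and 28.6%. The 5% of spots richest in HSPB1 held 17.2% of its UMIs in the stored and 19.5% in the fresh section. In the stored tenotomized sections, HSPB1 was at 9.53 per 10000 UMIs after 2 weeks and 20.5 after 16 weeks, HSPB8 at 2.65 and 1.45, FLNC at 1.13 and 1.12, and ANKRD1 at 7.01 and 1.47. For HSPB1, HSPB8, FLNC and ANKRD1 all 3 stored sections lay below the fresh one, and their fiber mix was not held equal in this listing. These genes were already named as lower in the stored healthy section, and the share of all genes with this order was not taken. By the sample names the section after 16 weeks and the stored healthy section came from 1 rabbit, and there was 1 fresh section. Whether storage underlies the order was not tested.

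Other genes with the smallest ratios had lower counts. PRIMPOL, a primase and polymerase that restarts stalled DNA copying, had 70 UMIs in the stored and 174 in the fresh section and a ratio within bands of −2.98 (−3.67 to −2.30). SHISAL2A had 45 and 205 UMIs and −2.62 (−3.20 to −2.04). DNAJB9, a chaperone of the endoplasmic reticulum, was at 0.274 and 1.02 per 10000 UMIs, with −1.79. ALDH2, the mitochondrial aldehyde dehydrogenase, had −1.77 within bands, and CEBPG, a transcription factor of the stress response to amino acid shortage, had −1.83. NCBP2AS2 had −1.61 and is named as an antisense gene, so its reads may include its partner, since the sources used here do not give whether counting used the strand. All of these had every stored band below every fresh band. They were picked for the smallest ratios of these same bands, so this is partly built in, and the share of all genes with such bands was not taken. PRIMPOL, SHISAL2A, CEBPG and NCBP2AS2 reached the minimum count within bands only through their fresh UMIs. Low genes were thus more readily named here when lower in the stored section.

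ZFP36, an early response gene whose protein speeds the decay of messenger RNAs, was at 0.157 per 10000 UMIs in the stored and 0.435 in the fresh section, with −1.67 within bands (−2.05 to −1.29). It was the only 1 of 5 immediate early genes past 2-fold within bands, where 7.38% of all genes were lower, and the list had a median of −0.48. CA9, a carbonic anhydrase that is induced by low oxygen, had −1.68 (−2.02 to −1.35), and 2 of 4 hypoxia genes were 2-fold lower within bands, against 7.38% of all genes, with a median of −0.84. The other was P4HA1, a collagen prolyl hydroxylase, with 110 and 129 UMIs and −1.14 (−1.68 to −0.60). Over all spots 2 of 5 hypoxia genes were lower and 1 was higher, against 7.37% and 7.29% of all genes. The higher one was SLC2A1, a glucose transporter, which had 128 and 17 UMIs and 2.04 but too few within bands to be counted. Among the glucocorticoid and fasting response genes none of 4 passed 2-fold and the median was −0.71, and KLF9 was at 0.192 and 0.154 per 10000 UMIs. These lists rest on few counted genes with low counts.

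The proteasome, which degrades tagged proteins, was represented by 27 genes. Of these 2 were 2-fold lower and none was higher, with a median of −0.27, close to the median gene. PSMA1, a subunit of the core particle, had −1.19 (−1.49 to −0.90) and PSMD3, of the regulatory cap, −1.18 (−1.67 to −0.70), and both rested on at most 392 UMIs in a section. The share of lower genes, 2 of 27, was near the 7.38% among all genes.

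Matrix genes were higher in the stored section. COL1A2, which encodes a chain of type I collagen, was at 10.1 per 10000 UMIs in the stored and 2.14 in the fresh section, with a log2 ratio of 2.24 over all spots and 1.63 within bands (1.53 to 1.73). LUM, the collagen-binding proteoglycan lumican, was at 4.16 and 0.774 per 10000 UMIs, with 2.43 and 1.87. FN1, which encodes fibronectin, was at 3.92 and 0.842, with 2.22 and 1.49. The other collagen genes past 2-fold were COL1A1 at 1.61 and COL3A1 at 1.12 within bands. Of 7 fibroblast and matrix genes counted, 5 were 2-fold higher in both comparisons, against 7.29% of all genes over all spots and 3.42% within bands, and the median went from 2.22 to 1.49. The list did not move as a block, since DCN, the abundant proteoglycan decorin, stood at 0.21 and DPT, dermatopontin, at 0.02 within bands. In spots with many cells, more fibroblasts and more RNA per fibroblast cannot be told apart.

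Secreted factors of connective tissue showed larger ratios on lower counts. SFRP2, a secreted modulator of Wnt signaling made by fibroblasts, had 1459 UMIs in the stored and 46 in the fresh section and a ratio of 4.04 within bands (3.36 to 4.71), with UMIs in 24.4% of stored and 1.38% of fresh spots. PDGFRL, a receptor-like protein, had 1.96 (1.48 to 2.43). CCL21, a chemokine of lymphatic vessels, had 487 and 34 UMIs and a ratio of 4.43 (3.68 to 5.19), but the 5% of spots richest in it held 83.2% of its UMIs in the stored section, so it was a local signal. The 5% of stored spots richest in SFRP2 held 57.6% of its UMIs, and for PDGFRL the value was 44.9%. SFRP2, PDGFRL and CCL21 were named for their large ratios and reached the minimum count only through their stored UMIs. Low genes were thus more readily named here when higher in the stored section. Leaving out the 10% of spots richest in matrix, macrophage and MHC class II UMIs in each section left COL1A2 at 1.74, LUM at 2.06 and SFRP2 at 4.08 within bands. These spots were chosen over each whole section by UMIs that include COL1A2 and LUM. Of the stored UMIs of the matrix list, 56.9% lay above the used bands. The values therefore do not tell which spots held the matrix difference.

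**Figure D4:**
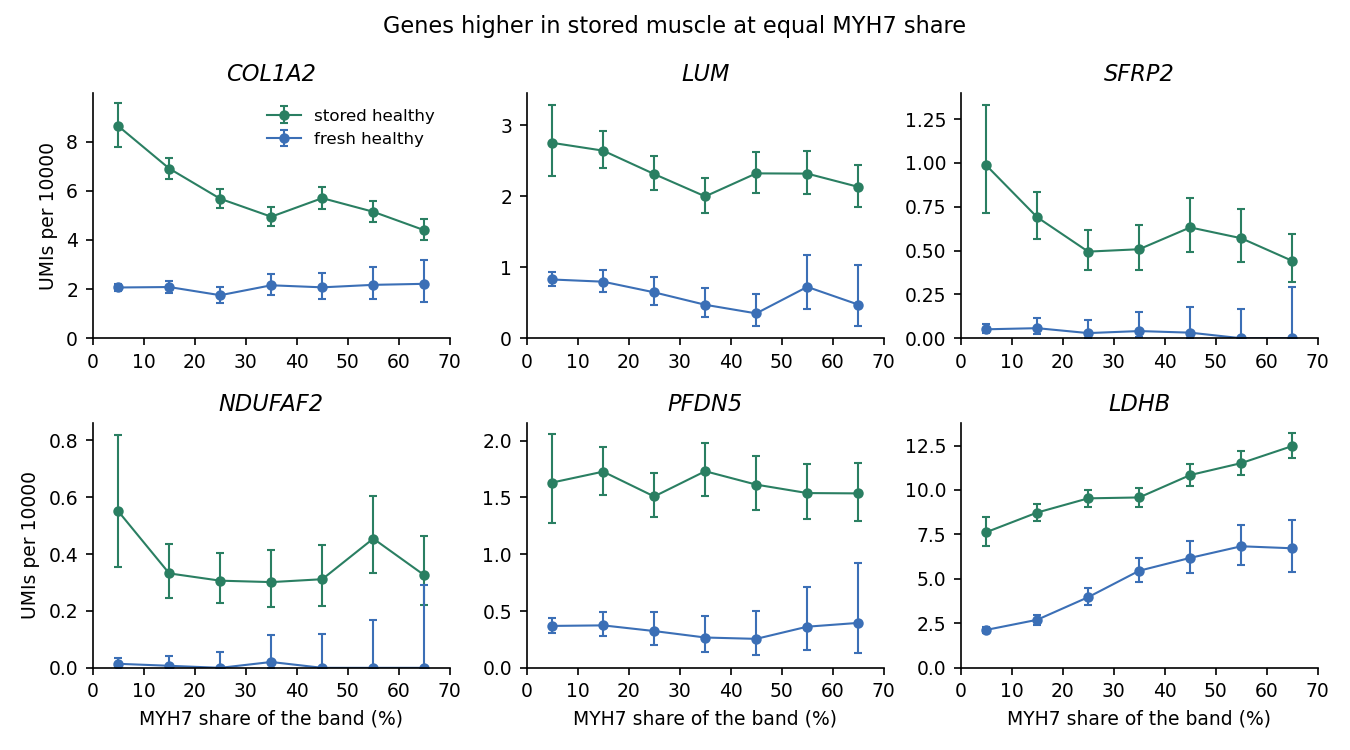
Level in UMIs per 10000 (y axis) against the MYH7 share of the band (x axis, %) for 6 genes, with exact Poisson 95% intervals for counting error. Stored points (green) lie above fresh points (blue) in every band; LDHB climbs with the MYH7 share in both sections, from 7.62 to 12.5 in stored and from 2.13 to 6.72 in fresh spots.

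A gene of mitochondrial assembly and a gene of protein folding were higher over the whole section. NDUFAF2, an assembly factor of respiratory complex I, had 381 UMIs in the stored and 7 in the fresh section, a ratio of 5.65 within bands (4.09 to 7.22). Its UMIs lay in 13.2% of stored spots (interval 11.9 to 14.6) and 0.308% of fresh spots (0.113 to 0.669), and no spot held more than 1.05% of the stored UMIs. It was at 0.304 per 10000 UMIs here, against 0.00997 in fresh muscle, 0.00981 after 2 weeks and 0.00211 after 16 weeks of tenotomy. The section after 16 weeks came from the same rabbit as the stored healthy section by the sample names. PFDN5, a subunit of prefoldin that hands new proteins to a folding complex, was at 1.64 and 0.352 per 10000 UMIs, with 2.28 (2.03 to 2.53), and its stored bands held between 1.51 and 1.73 against fresh bands of 0.255 to 0.395.

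By contrast, some of the largest ratios drew many of their UMIs from a single spot of the stored section. MMP12, the macrophage elastase, had 255 UMIs in the stored section and 0 in the fresh one. With a floor of 3 counts in place of the 0, it was 66.0-fold higher within bands, a value without an interval. Of the 255 UMIs 179 lay in 1 spot. GPNMB, a membrane glycoprotein of lipid-laden macrophages, had 570 and 12 UMIs, with a log2 ratio of 5.97 (4.84 to 7.10), and 334 of its UMIs were in that spot. LGALS3, the lectin galectin-3 of activated macrophages, had 1409 and 154 UMIs, with 2.67 (2.36 to 2.98), and 391 in the same spot. The spot had 16884 UMIs and an MYH7 share of 19.7%, and also held 69 UMIs of CD68, a lysosomal marker of macrophages. Without the richest spot of each section the ratios were 3.76 for MMP12, again with the floor, 4.92 for GPNMB and 1.501 for LGALS3.

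Other macrophage genes were higher as well, at low levels. STAB1, a scavenger receptor of tissue macrophages, was at 0.330 per 10000 UMIs in the stored and 0.0983 in the fresh section, with 1.74 over all spots and 1.21 within bands (0.75 to 1.66). C1QA, a subunit of complement C1q, was at 0.274 and 0.0898, with 1.60 and 1.15 (0.64 to 1.66). Thinning spots to 1000 UMIs brought the ratios within bands to 0.96 for STAB1 and 0.69 for C1QA, both short of 2-fold, and equal weights for the bands brought STAB1 to 0.86. Over all spots 8 of 8 macrophage genes counted were 2-fold higher, against 7.29% of all genes, and within bands 5 of 7, against 3.42%, with a median of 1.15. The other calls were CD68 at 2.10 (1.49 to 2.71), which includes the spot described above, and CD14, a co-receptor for bacterial lipid, at 1.005 (0.35 to 1.66). The list has 14 genes with a feature, of which 8 were counted over all spots. GPNMB, C1QA and STAB1 had 12, 63 and 69 fresh UMIs and reached the minimum count only through their stored UMIs. Low genes were thus more readily counted when higher in the stored section, which partly sets the share of higher genes in this list. HLA-DRA, an MHC class II chain of antigen-presenting cells, was at 0.682 and 0.0983 per 10000 UMIs, with 2.78 over all spots and 1.31 within bands. It was the only 1 of 2 class II genes counted that passed 2-fold within bands, against 3.42% of all genes higher. With 69 fresh UMIs, HLA-DRA also reached the minimum count only through its stored UMIs. The HLA-DRA ratio within bands was 0.73 with thinned spots and 0.90 in the lowest band alone, so this call was lost in both. MHC genes have close copies in the genome, and how reads shared between copies were counted is not given in the sources used here.

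Genes of developing and regenerating fibers were higher too. MYH8, the perinatal myosin heavy chain, was at 0.7004 per 10000 UMIs in the stored and 0.118 in the fresh section, with a ratio of 3.48 within bands (2.87 to 4.09). Of the 83 fresh UMIs 45 lay in 1 spot, and without the richest spot of each section the ratio was 4.15. ACTC1 was at 5.42 and 0.462 per 10000 UMIs, with 3.55 over all spots and 1.66 within bands. Over all spots all 4 regenerating fiber genes counted were 2-fold higher, against 7.29% of all genes, and within bands both of 2 were, against 3.42%. The others were MYBPH, a myosin-binding protein, with 187 and 11 UMIs, and MYL4, the embryonic light chain, with 134 UMIs in the stored and 1 in the fresh section, too few within bands to be counted. Of the 7 genes of this list with a feature, 4 were counted over all spots. MYH8, MYBPH and MYL4 reached the minimum count only through their stored UMIs. Low genes were thus more readily counted when higher in the stored section, so the share of higher genes is partly set by the minimum. The level in the stored healthy section lay between those of the tenotomized sections for ACTC1, which had 2.98 per 10000 UMIs after 2 weeks and 19.1 after 16 weeks.

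Much of what the bands left out sat in the MYH7-rich spots of the stored section. The 741 stored spots above 70% held 35.1% of the UMIs of that section but 79.7% of those of ACTC1, 71.2% of HLA-DRA, 64.5% of FN1 and 58.9% of COL1A2. ACTC1 was at 12.3 per 10000 UMIs there and at 1.65 in the stored spots within bands, HLA-DRA at 1.38 and 0.287, and COL1A2 at 16.9 and 5.74. CRYAB was at 88.7 and 40.8, while HSPB8 was nearly level at 1.02 and 0.958 per 10000 UMIs. The fresh section had 23 spots of this kind, so no counterpart was compared and the all-spot ratios of these genes include spots without a match in fresh muscle.

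Most counted genes of energy metabolism lay within 2-fold, as did most genes of any kind. Within bands 3.42% of all genes were higher and 7.38% lower, so a short list without a call is near the share of all genes. None of 26 nuclear genes of the respiratory chain passed 2-fold over all spots or within bands, with medians of 0.21 and 0.15, and COX5B, a subunit of complex IV, was at 32.0 and 24.7 per 10000 UMIs with 0.29 within bands. Of 31 mitochondrially encoded genes 2 were 2-fold higher, against 3.42% of all genes, both without a symbol, and the median was 0.11. Both, ENSOCUG00000029088 and ENSOCUG00000029094, fell short of 2-fold with thinned spots (0.82 and 0.95) and in the lowest band alone (0.72 and 0.73). None of 9 glycolysis and glycogen genes passed 2-fold within bands, with a median of −0.20, and ALDOA, the muscle aldolase, went from −0.81 over all spots to −0.20. None of 9 fatty acid genes passed it either, with a median of 0.45 against −0.16 for the median gene, and the highest was FABP3, the fatty acid carrier of heart and slow muscle, at 12.4 and 5.21 per 10000 UMIs with 1.25 over all spots and 0.82 within bands. None of 11 calcium handling genes passed 2-fold within bands.

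Of ribosomal protein genes, 13 carried a unique symbol, and most of those counted were slightly higher in the stored section. None of 12 passed 2-fold, but 11 of 12 lay above 0 and the median was 0.37 within bands, where the median gene stood at −0.16. RPL37, of the large subunit, was at 31.5 and 18.8 per 10000 UMIs, with 0.54 (0.50 to 0.57), and RPS29, of the small subunit, at 53.0 and 39.8, with 0.39. Each stored band lay above each fresh band for both genes. The share of all genes above 0 or with such bands was not taken.

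The remaining lists were short. LMOD1, leiomodin of smooth muscle, was the only 1 of 5 smooth muscle and pericyte genes past 2-fold within bands, where 3.42% of all genes were higher. It had 1.02 (0.77 to 1.27) and stood at 0.66 in bands of the ATP2A2 share. This call was also lost with thinned spots (0.89), with bands of 0.2 in width (0.91) and in the lowest band alone (0.67). VWF, von Willebrand factor of endothelium, was at 2.09 and 1.18 per 10000 UMIs, with 0.66, and neither of 2 endothelial genes passed 2-fold. LPL, lipoprotein lipase, was at 2.95 and 3.44, with −0.22 over all spots and −0.82 within bands, and SNCG, gamma-synuclein, which adipose tissue also makes, had −1.02 and −0.78. Thus 1 of 2 adipose genes was 2-fold lower over all spots, against 7.37% of all genes, and neither was within bands. The SNCG call over all spots was lost with scaling by the median gene (−0.96) and with thinned spots (−0.77). It was also lost without the spots richest in matrix, macrophage and MHC class II UMIs (−0.97). B2M, the common light chain of MHC class I, was at 4.03 and 2.43, with 0.56, and neither of 2 interferon response genes nor of 2 clock genes, of which HLF had 0.63, passed 2-fold within bands. Of 4 redox genes 1 was lower within bands, against 7.38% of all genes, namely CAT, which encodes catalase, with −1.71 on 121 UMIs of both sections within bands. SOD1, superoxide dismutase, was level at 0.08. The single nerve gene counted, S100B of Schwann cells, was past 2-fold at 1.08, against 3.42% of all genes higher. It rested on 111 UMIs of both sections within bands.

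**Figure D5:**
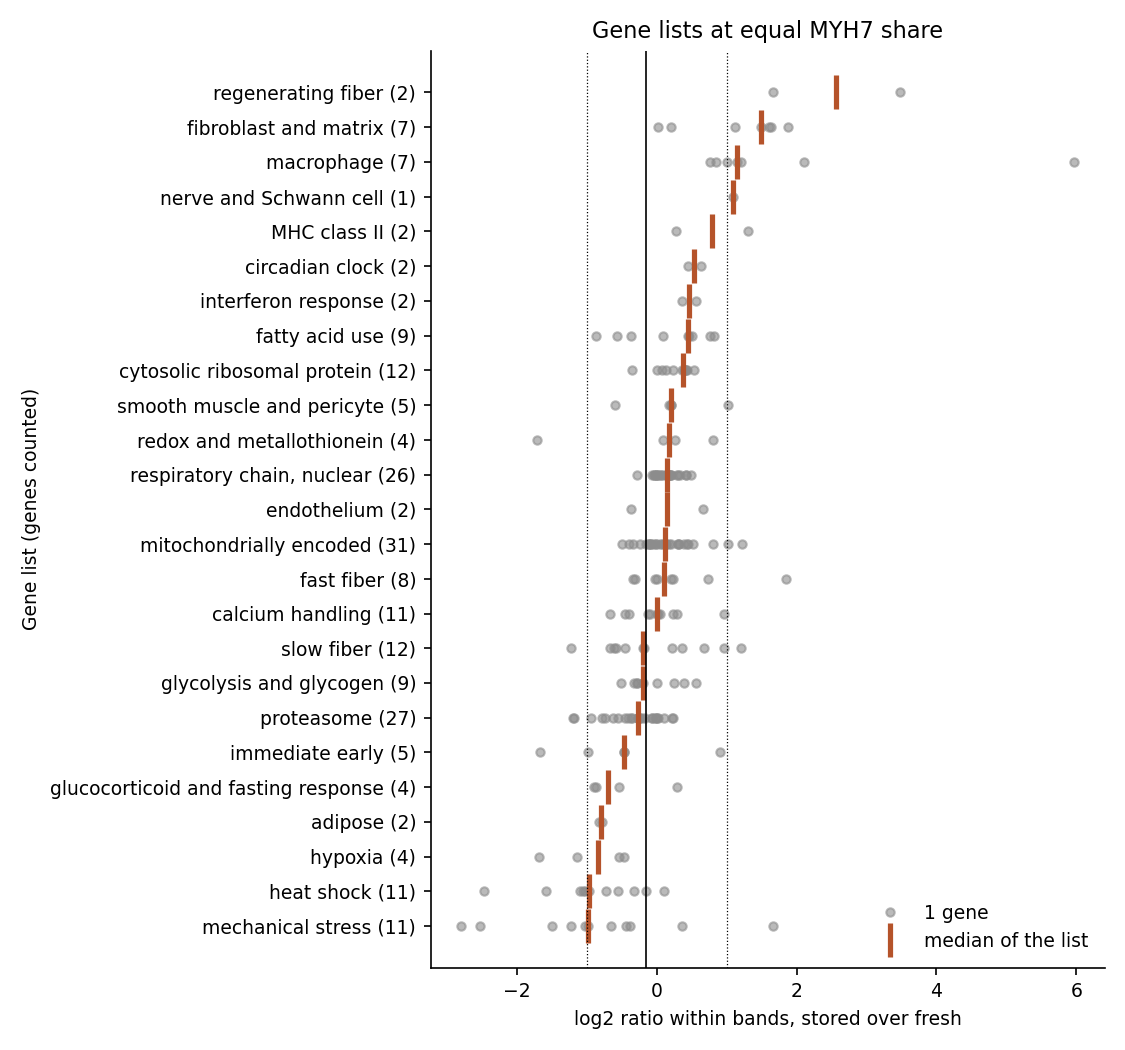
log2 ratio of stored over fresh within bands (x axis) for the genes of each list (gray points) and the median of the list (red bar), with the number of genes counted in parentheses. The solid line marks the median of all genes at −0.16 and dotted lines mark 2-fold; the heat shock and mechanical stress lists lie lowest at −0.97 and −0.98, and the fibroblast and matrix list has a median of 1.49.

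Of the 99 genes higher and 214 lower within bands, 33 and 75 had no unique symbol. Among these, ENSOCUG00000022825 had 22 UMIs in the stored and 1939 in the fresh section, with −7.28 (−8.13 to −6.42), and ENSOCUG00000032380 had 12 and 1382, with −6.94. ENSOCUG00000021281 had 1099 and 12 UMIs, with 5.80, and ENSOCUG00000019783 had 853 and 7, with 5.54. In the tenotomized sections ENSOCUG00000022825 was at 1.68 per 10000 UMIs after 2 weeks and 0.00843 after 16 weeks, against 0.0175 in stored healthy muscle and 2.76 in fresh muscle. ENSOCUG00000032380 was at 0.0147 and 0.00422 in the tenotomized sections, 0.00957 in stored healthy muscle and 1.97 in fresh muscle, and ENSOCUG00000021281 at 1.30, 2.31, 0.877 and 0.0171 in the same order. ENSOCUG00000019783 was at 0.353, 0.759, 0.680 and 0.00997. For each of these identifiers every stored section thus lay on the same side of the fresh one. They were named after their values were seen, and the share of all genes with this order was not taken. For ENSOCUG00000022825 the stored sections differed among themselves, and the section after 2 weeks, at 1.68, lay nearest the fresh one. Its low values were in the stored healthy section and the section after 16 weeks, which came from the same rabbit by the sample names.

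The direction of a call could be read in each band. Of the 99 higher genes 84 were above fresh in all 7 bands, and for 60 every stored band lay above every fresh band. Of the 214 lower genes 127 were below fresh in all 7 bands, and 84 had bands that did not overlap. The genes were called on the combined ratio of these same bands, so agreement between bands is partly built in. The share of all counted genes that agreed in every band was not taken, so these counts describe the called genes only. Bands with few fresh spots have wide counting error, since the band from 60% to 70% held 126447 fresh UMIs against 3524404 in the lowest. Spots of 1 section are not replicates, so none of these counts speaks to differences between animals.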

How the data were processed

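The deposited values were raw counts of UMIs for each gene in each spot under tissue, made by the authors with Space Ranger 1.2.0, OryCun2.0 as the genome and Ensembl gene models, and they carry no normalization. All 4390 spots were kept, and no doublet caller was run. UMIs were summed per gene and section, and log2 ratios relative to the section total were taken after adding 0.5 UMI, with exact conditional 95% intervals. Within bands, Mantel-Haenszel rate ratios with Greenland-Robins intervals were used, for genes with at least 100 UMIs in the banded spots. A gene at 0 in a section was set to 3 counts. Shares of spots carry exact binomial intervals, and thinning to 1000 UMIs left out 93 stored and 266 fresh spots. Symbols were used where they named 1 feature. The sections share 1603 barcodes, which are array positions. Members and gene lists were chosen with earlier results of these data known. Genes were named if they had at least 200 banded UMIs and were among the 10 largest or 10 smallest ratios within bands, among the 4 largest calls of a list (the 2 with most UMIs in a list without calls), or slow or fast fiber genes. CRYAB, HSPB3, XIRP1, P4HA1, SLC2A1, COL3A1, DCN, DPT, CD68, CD14, MYBPH, MYL4, CAT, S100B and identifiers without a symbol were named after their values were seen. Alternatives covered depth, scaling, minimum counts, band width and definition, weights and spots rich in other cells. Scripts ran in Python 3.11.15 with scipy 1.17.1, matplotlib 3.10.9, pandas 2.3.3 and numpy 2.4.6, and were tested on simulated data.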

Additional observations from a re-analysis of the deposited data

How the results depend on the processing

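Counts of genes past 2-fold moved with the minimum number of UMIs per gene, which also sets how many genes are counted, and with thinning. Over all spots, a minimum of 500 UMIs gave 96 higher and 70 lower of 1416 genes, and a minimum of 50 gave 385 lower of 4370. Within bands, a minimum of 50 UMIs gave 161 higher and 355 lower of 3893 genes, a minimum of 500 gave 32 and 48 of 1138, thinning spots to 1000 UMIs gave 149 and 350 of 2898, and the lowest band alone, an alternative added after seeing the data, gave 51 and 137 of 1456 genes. Scaling by the median gene gave 130 higher and 133 lower genes within bands in place of 99 and 214, and 269 and 216 over all spots in place of 247 and 250. This scaling centers the ratios. For single genes, the alternatives covered those named by the rule and CRYAB. XIRP1, P4HA1, COL3A1, CD68, CD14, CAT, S100B and the identifiers outside the mitochondrial list were named after their values were seen and were not covered. Of the 74 covered genes within bands, 40 were past 2-fold, and 27 of them were so under every alternative run. For these 40 genes, 495 of 524 alternative values were past 2-fold, and 524 of 524 had the same direction. Over all spots, 44 of 45 were past 2-fold under every alternative. The alternatives reuse UMIs of the same sections, and many of these genes were named for their ratios or calls there. Agreement is thus partly built in and does not speak to other sections or animals. Bands by troponin genes were not run, since no feature used here carries the symbol TNNI2, TNNT1 or TNNT3, and bands of the ATP2A2 share were added in their place after seeing the data. Ratios by coding length were not run for lack of a protein table. With 1 section per condition no section could be left out. No paired analysis was possible because each condition has 1 section and the stored and fresh healthy sections came from different rabbits by their names. Depth limited genes under about 100 UMIs, and the upper bands through their few fresh spots.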
